A study of Solenopsis invicta with 3 samples.

Results

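The genes described here are 136 odorant receptors of the fire ant Solenopsis invicta that were expressed in worker antennae and whose reads could be placed with little ambiguity. They were chosen from 473 gene IDs beginning with SiOR, among 19703 genes in the expression tables. A receptor was included when its normalized count averaged over the 3 libraries reached 10 and when, in every library, the posterior standard deviation (SD) of its count was under 0.3 times the square root of the count. That SD comes from the expression estimator and grows as more reads fit other sequences equally well. Of the other receptor IDs, 296 were under the minimum mean and 41 were expressed but had reads shared with other sequences. The mean level and the SD chose the list, so both are given only as description.

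Antennae were taken from workers of 3 classes. P_Bb workers came from polygyne colonies, which have several queens, and carried the SB/Sb genotype of the social supergene, a chromosome region inherited as one unit. P_BB workers came from polygyne colonies and were SB/SB, and M_BB workers came from monogyne colonies, which have a single queen, and were also SB/SB. RNA of several colonies was mixed into 1 library per class, so no difference between classes has a replicate check. The labels name 4 colonies for each pool, the same ones for P_Bb and P_BB and others for M_BB, so colony origin and social form cannot be told apart. The design text adds that not every biological replicate entered a pool, and ages of the workers are not given in the sources used here.

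Odorant receptors are membrane proteins of the olfactory neurons in the antenna. In insects each tuned receptor forms an ion channel together with a shared co-receptor, and odor binding opens that channel. Ants have a much expanded receptor family that includes receptors for the hydrocarbons on the cuticle of nestmates and queens. Which odor each of the SiOR genes detects is not annotated in the files or the paper, so single receptors are described below by ID, rank, length and level, with no role assigned.

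The P_Bb, P_BB and M_BB libraries held 1310209, 1800106 and 1453234 expected counts. Counts above 0 were found for 431, 439 and 437 of the 473 receptor IDs, respectively, in tissue labelled antennae. No floor was applied to these numbers, and an expected count can include a share of reads that fit other sequences equally well. A count above 0 therefore does not show that a receptor was expressed, and 296 of the 473 IDs were under the minimum mean. In P_Bb the 136 receptors took 2578 counts, 0.197% of the library (Wilson 95% interval 0.189 to 0.204). They took 3373 counts in P_BB, 0.187% (0.181 to 0.194), and 2833 counts in M_BB, 0.195% (0.188 to 0.202). These intervals cover counting error only, and they overlap in each pair of libraries. The list held 51.9%, 52.7% and 48.7% of the counts of all 473 SiOR IDs in P_Bb, P_BB and M_BB. That total includes 463, 607 and 753 counts of SiOR1_co, a receptor with shared reads. It leaves out receptor models under other IDs, such as XLOC_016888. With so few reads per receptor the precision of single values is low, and fewer receptor neurons cannot be told apart from less receptor RNA per neuron.

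Most receptors of the list stood at low and similar levels. Mean normalized counts, which are expected counts divided by a size factor for the depth of each library, ran from 10.04 to 180.5 with a median of 16.1. Of the 136 receptors, 91 lay from 10 to under 20, 28 from 20 to under 30, 9 from 30 to under 50, 7 from 50 to under 100 and 1 above 100. The upper end was therefore made of 17 receptors with a mean of at least 30. Just inside the minimum were SiOR392 with a mean of 10.045 and SiOR372 with 10.099, and just outside it were SiOR333 with 9.995 and SiOR224 with 9.97. On the SD limit, SiOR85 at 0.294 and SiOR184 at 0.275 were inside, and SiOR429 at 0.307 and SiOR176 at 0.31 were outside.

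**Figure D1:**
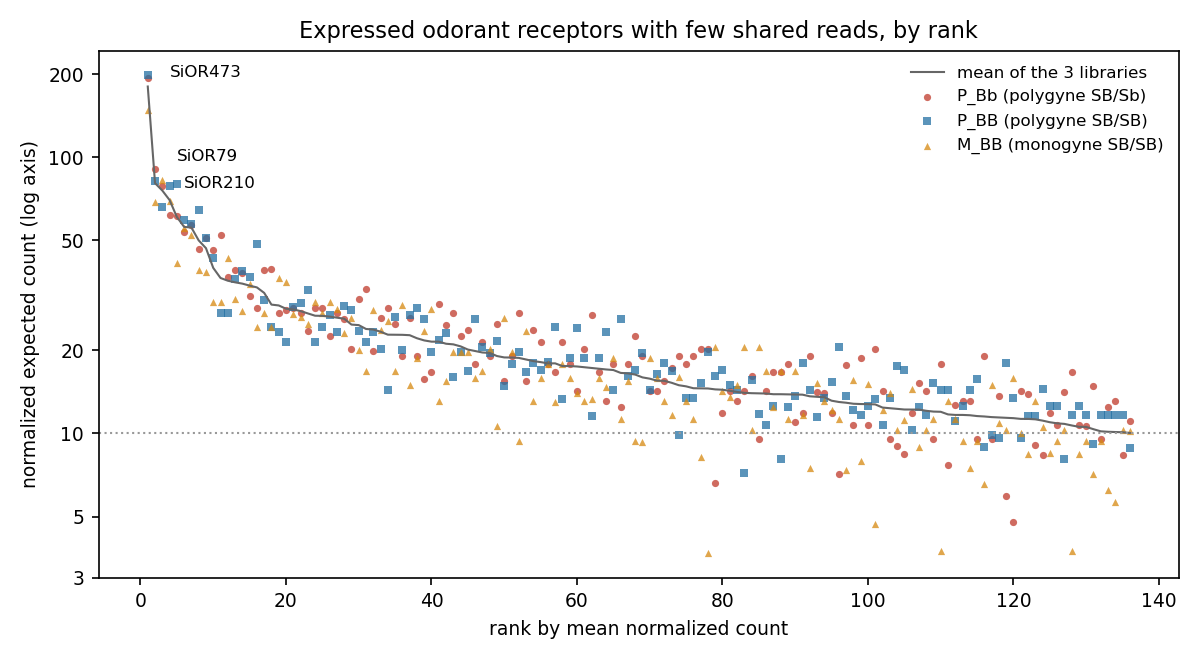
Normalized expected count (log axis) of the 136 receptors against their rank by mean, with 1 point per library and a line for the mean of the 3 libraries; the dotted line is the minimum mean of 10. SiOR473 stands alone at the top with a mean of 180.5, 17 receptors reach 30, and the points of the lowest ranks scatter to under 5.

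SiOR473 was the most abundant receptor of the list. Its normalized count was 194, 199 and 148 in P_Bb, P_BB and M_BB, so the polygyne libraries were close to each other and the monogyne library was lower. The log2 ratio of M_BB over P_BB was -0.43, with a 95% counting-error interval of -0.72 to -0.13, and that of P_Bb over M_BB was 0.39 (0.08 to 0.71). With total counts in place of the upper quartile as the scaling these were -0.18 (-0.48 to 0.11) and 0.20 (-0.12 to 0.51), so both intervals then included 0. The difference between P_Bb and P_BB was -0.04 on the log2 scale (-0.33 to 0.26), within counting error. SiOR473 alone made up 6.3%, 6.6% and 5.6% of the list's counts in P_Bb, P_BB and M_BB.

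Levels of different genes were compared by TPM, an abundance per transcript that corrects for length and is scaled to the same total in each library. On this scale SiOR473 had 164, 161 and 133 TPM in P_Bb, P_BB and M_BB, and its mean of 152.8 TPM was 8.4 times the median of the list, 18.3 TPM. Among the 14847 genes with a count in any library, 878 genes had a higher mean TPM than SiOR473, or 5.9%. The median receptor of the list lay near the middle of those genes, since 47.8% of them were higher. SiOR79 was below 12.4% of them. Many of those genes were under the minimum mean that the list had to pass. Among the 8393 genes that reached it, the median was 36.4 TPM, above the list's 18.3.

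SiOR79 and SiOR210 followed in both orders. SiOR79 had normalized counts of 90.8, 82.1 and 69.0 in P_Bb, P_BB and M_BB. SiOR210 had 78.5, 66.3 and 82.5 in P_Bb, P_BB and M_BB, so M_BB was lowest for the former and highest for the latter. All pairwise log2 ratios of both receptors had counting intervals that included 0. The estimator also gives a posterior mean TPM with a credibility interval, a second estimate that runs below the TPM values above. In P_Bb this was 135.90 for SiOR473 (115.65 to 157.30), 80.89 for SiOR79 (63.20 to 99.14) and 70.52 for SiOR210 (54.01 to 87.55). SiOR473 was clear of SiOR79 in every library, whereas in M_BB its interval (96.19 to 131.31) touched that of SiOR210 (63.51 to 97.14). The intervals of SiOR79 and SiOR210 overlapped in every library.

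Below these leaders neighbours in the order were mostly not resolved. Of 135 pairs of neighbours in the TPM order, the intervals were apart for 1 pair in P_Bb and for 2 in each of the SB/SB libraries, and the only pair apart in all libraries was SiOR473 and SiOR79. The 10 receptors with the highest mean normalized counts held 24.2% of the list's counts in P_Bb, with a Wilson interval of 22.6 to 25.9, while P_BB gave 25.8% (24.4 to 27.4) and M_BB gave 23.5% (22.0 to 25.1). The 20 highest held 35.9%, 36.2% and 35.4%. The share taken by the leading receptors was therefore much alike in the 3 libraries.

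The same receptors led in each class. When the 10 highest were taken separately in each library, 9 were common to all 3: SiOR39, SiOR79, SiOR140, SiOR210, SiOR212, SiOR359, SiOR466, SiOR471 and SiOR473. Of the 20 highest, 12 were common. Over all 136 receptors, Spearman's rho of the normalized counts was 0.68 between P_Bb and P_BB, 0.66 between M_BB and P_BB and 0.60 between P_Bb and M_BB. The points of these correlations are genes measured with the same reference and estimator, and the narrow range of levels limits how high rho can be.

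Coding length set part of the order by counts. The longest receptor, SiOR471 with 3696 bases, had normalized counts of 61.7, 78.9 and 69.4 in P_Bb, P_BB and M_BB and ranked 4 by count. Its mean TPM was 20.2, and it ranked 55 on that scale. SiOR466, with 2511 bases, had normalized counts of 53.5, 59.1 and 55.3 in the same order and a mean TPM of 24.7, so its rank went from 6 to 41. In the other direction SiOR14, with 831 bases, ranked 30 by count and 9 by TPM, with 52.8, 38.7 and 36.5 TPM in P_Bb, P_BB and M_BB. SiOR469 was the shortest at 762 bases and ranked 59 by count and 17 by TPM. Of the 10 highest receptors, 8 were common to both orders.

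**Figure D2:**
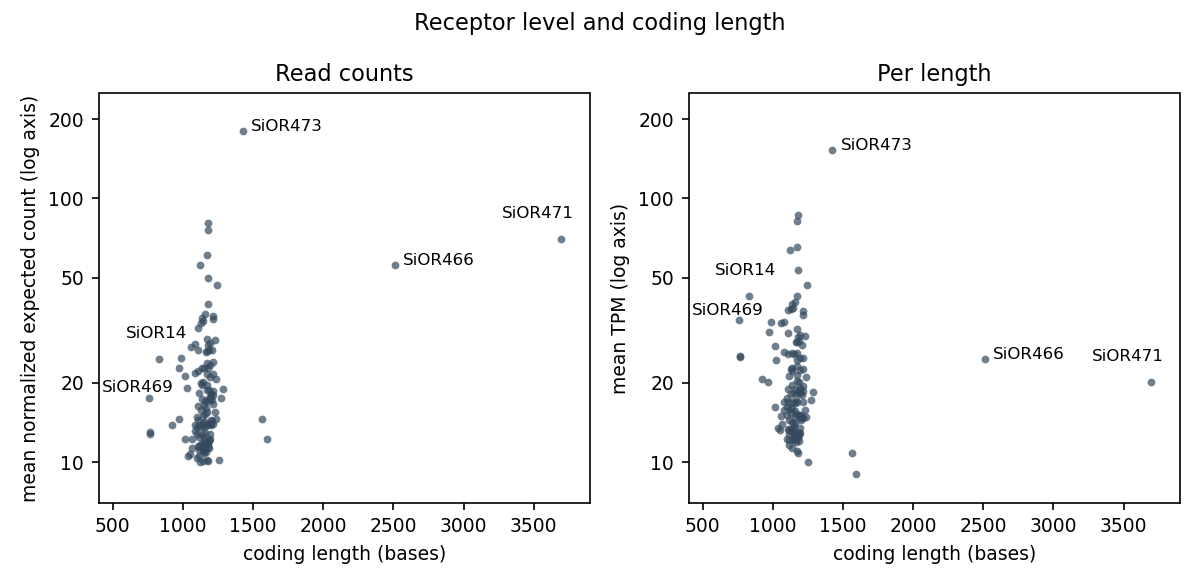
Mean normalized expected count (left) and mean TPM (right), both on log axes, against coding length in bases for the 136 receptors. SiOR471 and SiOR466 are among the highest by count and near the middle by TPM, whereas SiOR473 is highest on both scales.

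Most gene models of the list were similar in length, although the full range was 762 to 3696 bases. All 136 lengths were multiples of 3, as coding lengths are. They had a median of 1160 bases, and 123 lay between 1000 and 1300 bases, 8 below 1000 and 5 above 1300. The 5 long ones were SiOR435, SiOR466, SiOR471, SiOR472 and SiOR473. Short models were more frequent among the receptors under the minimum mean, of which 95 (32.1%) were below 1000 bases, compared with 5.9% of the list and none of the 41 receptors with shared reads. The minimum on counts favours long models, and its part in this difference was not tested.

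Receptors of the list were spread over the whole range of ID numbers. In blocks of 50 consecutive numbers, from 12 to 15 IDs were on the list, except for 201 to 250 with 20 of 50 and the short block from 451 to 473 with 11 of 23 (47.8%). Blocks 201 to 250, 301 to 350 and 451 to 473 held no expressed receptor with shared reads, and the other 7 blocks held from 1 to 10. Runs of at least 4 consecutive numbers were SiOR50 to SiOR54, SiOR204 to SiOR207, SiOR210 to SiOR214, SiOR270 to SiOR273, SiOR340 to SiOR344 and SiOR401 to SiOR404. Levels differed within runs, and in the run of 5 from SiOR210 the mean normalized count went from 10.6 to 75.8. In that run 1 receptor was higher in P_Bb than in P_BB, and 4 were lower. Whether the numbers follow genome position or sequence family is not given in the sources used here.

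The SD limit kept receptors whose counts hardly depended on the estimator. Posterior SDs of 0 in all libraries were found for 23 of the 136 receptors, and in 135 the expected count and the posterior mean count differed by at most 1 count in each library. The largest difference was 1.16 counts. Among the 41 receptors with shared reads that difference was within 1 count for 23 and reached 151.2 counts in SiOR1_co. SiOR1_co, named here after its values were seen, is the only receptor ID with a suffix, and whether it marks the co-receptor is not given in the sources used here. It had normalized counts of 551, 544 and 706 in P_Bb, P_BB and M_BB and a mean of 507 TPM, above every receptor of the list. Its posterior SDs were 81.6, 133 and 87.5 counts, respectively, and for that reason it is not on the list.

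For most receptors the 3 libraries lay within 2-fold of each other. The highest library was less than 1.5-fold above the lowest for 63 receptors, from 1.5-fold to under 2-fold for 48, from 2-fold to under 3-fold for 20 and over 3-fold for 5. The median of this ratio was 1.52. The ratio was not computed for all genes, and at these low counts it includes counting error, so it is no trait of the receptors. Among receptors with a mean of at least 30, those with the smallest range were SiOR359, SiOR466, SiOR211, SiOR210 and SiOR251. SiOR359 had normalized counts of 57.1, 57.4 and 52.5 in P_Bb, P_BB and M_BB, the smallest range of these. SiOR211 had 31.4, 36.8 and 34.7, and SiOR251 had 38.9, 36.2 and 30.7, all within counting error.

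P_Bb and P_BB came from the same colonies and differ in supergene genotype. The median log2 ratio of P_Bb over P_BB was 0.04 over the list and 0.01 over the 8393 genes whose mean normalized counts reached 10. Of the 136 receptors, 71 were higher in P_Bb (52.2%, against 51.6% of all genes) and 65 lower. The SD of the ratios across receptors was 0.511, and the counting error of the single ratios was 0.506 (root mean square), so the spread was about as wide as counting alone gives. At least 2-fold differences were found for 3 receptors higher in P_Bb (2.21%, against 1.44% of all genes) and 5 lower (3.68%, against 1.43%). Most receptors have few counts. In the 2841 genes with means from 10 to under 30, 3.80% were higher and 3.73% lower, and of the 119 receptors in that range 2.52% and 4.20%. The numbers were thus close to those of other genes of like depth.

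The receptors furthest down in P_Bb against P_BB were SiOR214, SiOR21, SiOR137, SiOR391 and SiOR50. SiOR214 had normalized counts of 5.95, 17.9 and 10.3 in P_Bb, P_BB and M_BB, and its log2 ratio to P_BB was -1.51 (-2.87 to -0.16). SiOR21 had 7.14, 20.6 and 11.3 in the same order and a ratio of -1.47 (-2.72 to -0.21). In both, M_BB lay between the polygyne classes. The receptors furthest up were SiOR422, SiOR402, SiOR12, SiOR390 and SiOR358. SiOR422 had normalized counts of 26.9, 11.6 and 13.3 in P_Bb, P_BB and M_BB, a log2 ratio to P_BB of 1.18 (0.21 to 2.15), and to M_BB of 0.99 (0.04 to 1.93). It was therefore highest in P_Bb, just under 2-fold above M_BB, and with total counts the ratio to M_BB was 0.80 (-0.14 to 1.74).

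Among the more abundant receptors, SiOR168 and SiOR124 differed between the polygyne classes by less than 2-fold but beyond counting error. SiOR168 had normalized counts of 52.4, 27.3 and 30.01 in P_Bb, P_BB and M_BB, and its log2 ratios were 0.93 against P_BB (0.27 to 1.59) and 0.79 against M_BB (0.14 to 1.45). The SB/SB libraries lay together and below P_Bb, although with total counts the interval against M_BB reached -0.05. SiOR124 had normalized counts of 28.6, 48.4 and 24.4 in P_Bb, P_BB and M_BB, with log2 ratios of -0.75 for P_Bb over P_BB (-1.44 to -0.06) and -0.98 for M_BB over P_BB (-1.65 to -0.31). Here P_BB stood above both others, which follows neither genotype nor social form. In all, 7 receptors had an interval without 0 between P_Bb and P_BB, 3 of them higher in P_Bb (2.21%, against 5.23% of all genes) and 4 lower (2.94%, against 4.68%). At means from 10 to under 30 the shares were 1.68% of receptors against 3.38% of genes for higher and 2.52% against 2.60% for lower.

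M_BB and P_BB share the SB/SB genotype and differ in social form and in colonies. The median log2 ratio of M_BB over P_BB was -0.18 over the list and -0.02 over all genes. M_BB was lower for 89 of 136 receptors, against 4402 of the 8393 genes. At means from 10 to under 30 it was lower for 75 of 119 receptors, against 1359 of 2841 genes. With total counts in place of the upper quartile the direction of the list's median turned to 0.06, and with TPM it was -0.03, but those scalings moved the median of all genes to 0.22 and 0.12. Relative to all genes the list stood at -0.15 with the upper quartile, at -0.16 with total counts and at -0.16 with TPM. The SD of the ratios was 0.565 against a counting error of 0.498. At means from 10 to under 30 these were 0.584 and 0.521 for receptors, and 0.613 and 0.49 for genes.

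At least 2-fold differences between M_BB and P_BB were found for 2 receptors higher in M_BB (1.47%, against 2.20% of all genes) and 7 lower (5.15%, against 1.75%). In the range from 10 to under 30 the shares were 1.68% of receptors against 5.46% of genes for higher, and 5.88% against 3.70% for lower. With total counts the receptors split into 5 higher and 4 lower, so the direction of their own split depended on the scaling. All genes also moved up with total counts, to a median of 0.22. Their split by direction was not counted, so the excess over all genes was not checked there. By counting interval, 8 receptors were lower in M_BB (5.88%, against 13.8% of all genes, which include many deeper ones) and 1 was higher (0.735%, against 8.11%). At means from 10 to under 30, 3.36% of receptors were lower, against 3.73% of genes, and 0.840% were higher, against 5.56%.

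Abundant receptors were among those lower in M_BB. Besides SiOR473 and SiOR124, SiOR212 had normalized counts of 61.4, 79.8 and 41.3 in P_Bb, P_BB and M_BB, and a log2 ratio of M_BB over P_BB of -0.94 (-1.46 to -0.42). SiOR140 had 46.4, 64.5 and 39.1 in the same order and a ratio of -0.72 (-1.26 to -0.17). With total counts the interval of SiOR212 still left out 0 and that of SiOR140 did not. In both, P_Bb lay between the SB/SB libraries. The receptors furthest up in M_BB were SiOR358, SiOR12, SiOR390, SiOR207 and SiOR131. SiOR358 had normalized counts of 14.3, 7.17 and 20.6 in P_Bb, P_BB and M_BB, a ratio to P_BB of 1.46 (0.32 to 2.60), and was the only receptor higher in M_BB with an interval without 0. SiOR207 had 15.5, 14.8 and 26.3 and SiOR131 had 9.52, 11.8 and 20.6, with intervals against P_BB that included 0.

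**Figure D3:**
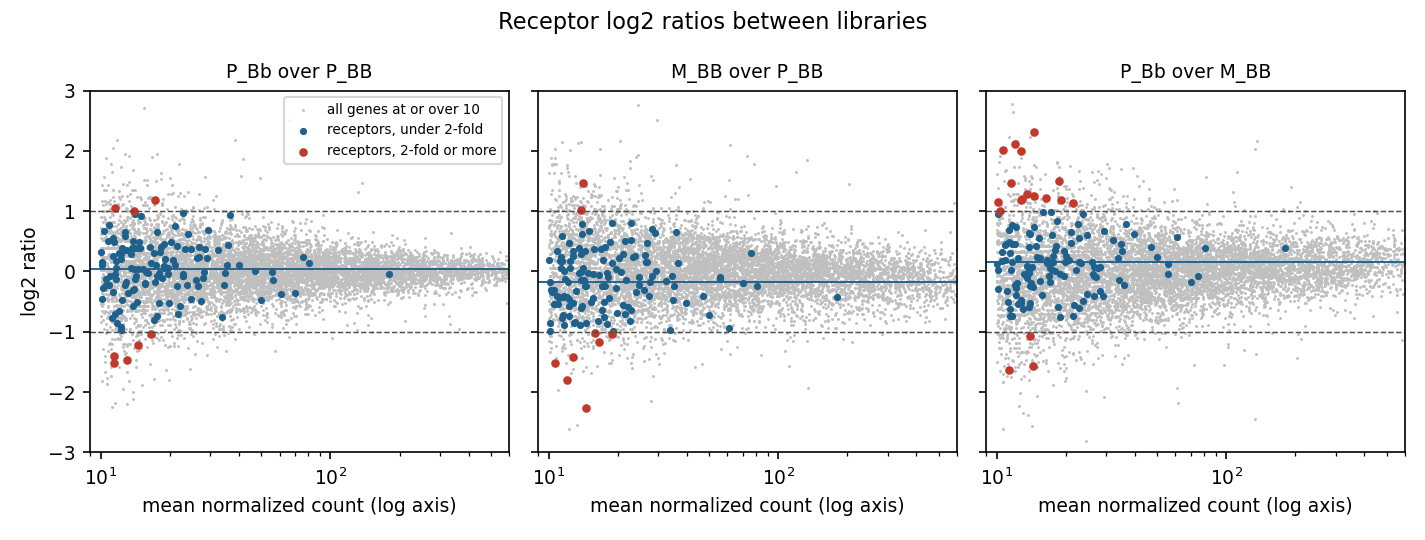
Log2 ratio against mean normalized count (log axis) for the 3 pairs of libraries, with all 8393 genes in gray (those within the axes), receptors under 2-fold in blue and receptors at 2-fold or more in red; dashed lines mark 2-fold and the blue line the median of the 136 receptors, which is 0.04, -0.18 and 0.16 from left to right. All red points lie at mean counts under 30, where the gray cloud is also widest.

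P_Bb and M_BB differ in genotype, social form and colonies at once, and this was the pair with the most receptors apart. The median log2 ratio of P_Bb over M_BB was 0.16 over the list and 0.04 over all genes. P_Bb was higher for 87 of 136 receptors (64.0%, against 54.0% of all genes). At means from 10 to under 30 it was higher for 63.0% of receptors, against 47.7% of genes. With total counts the list's median turned to -0.03 while that of all genes was -0.15, and relative to all genes it stood at 0.12 under both. At least 2-fold differences were found for 15 receptors higher in P_Bb (of 136, against 2.63% of all genes) and 3 lower (2.21%, against 2.67%). Among receptors with means from 10 to under 30, 12.6% were higher, against 5.35% of genes in that range, and 2.52% were lower, against 6.30%. With total counts 12 were higher and 3 lower.

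In each of the 15 receptors higher in P_Bb, P_BB lay between P_Bb and M_BB. Choosing genes for a high P_Bb and a low M_BB favours this order, which 81.0% of the 221 such genes among all genes also had. The polygyne libraries were close in some of the 15, as in SiOR435. Less than 2-fold differences in both pairs with P_BB were found for 9 of the 15, against 50.2% of the 221 genes. Of the rest, 5 were at least 2-fold lower in M_BB than in P_BB, against 33.9% of the 221 genes, and in 1 P_Bb exceeded P_BB by at least 2-fold. The 9 were SiOR36, SiOR85, SiOR113, SiOR143, SiOR187, SiOR342, SiOR343, SiOR349 and SiOR411. SiOR143, the most abundant of them, had normalized counts of 29.6, 21.8 and 13.1 in P_Bb, P_BB and M_BB and a log2 ratio of P_Bb over M_BB of 1.14 (0.21 to 2.07). This pair shares its libraries with the other comparisons, so its counts are not independent of them. The interval left out 0 for 16 receptors higher in P_Bb (11.8%, against 13.6% of all genes) and 2 lower (1.47%, against 7.67%). At means from 10 to under 30 the shares were 11.8% of receptors against 5.32% of genes for higher and 1.68% against 5.14% for lower. With total counts, chosen for this check after the values were seen, 9 of these 18 intervals still left out 0, as did 6 of the 7 between P_Bb and P_BB and 5 of the 9 between M_BB and P_BB.

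A stricter pattern asks which receptors had 1 library at least 2-fold from both others, in the same direction, while the others were less than 2-fold apart. With M_BB apart, 5 receptors were lower (3.68%, against 0.858% of all genes) and 0 were higher, against 0.512%. The 5 were SiOR112, SiOR206, SiOR222, SiOR258 and SiOR435. All 5 were under 10 normalized counts in M_BB and passed the minimum mean through the polygyne libraries. Their lower level in M_BB is thus partly built into the choice. With total counts SiOR206 fell out of this group, since its ratio of M_BB over P_BB was -0.80, and SiOR131 was higher in M_BB, which left 4 lower and 1 higher. With TPM SiOR206 also fell out, at -0.89. All 5 lay at means from 10 to under 30, where 4.20% of receptors were lower, against 1.83% of genes, and 0 were higher, against 1.16%.

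SiOR435, with 1563 bases, showed the largest difference of the list. It had normalized counts of 20.2, 19.7 and 3.69 in P_Bb, P_BB and M_BB, and the M_BB value rests on 3.94 expected counts. The polygyne libraries were nearly equal and M_BB lay below both, with log2 ratios of -2.27 for M_BB over P_BB (-3.74 to -0.80) and 2.30 for P_Bb over M_BB (0.80 to 3.81). SiOR112 had 17.8, 14.3 and 3.75, the last from 4 counts, and a log2 ratio of M_BB over P_BB of -1.80 (-3.31 to -0.30).

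The other receptors of this pattern were less sharply apart from P_BB. SiOR258 had normalized counts of 20.2, 13.3 and 4.69 in P_Bb, P_BB and M_BB, and its ratio of M_BB over P_BB was -1.41 (-2.82 to -0.01), or -1.19 (-2.59 to 0.22) with total counts. SiOR222 had 16.7, 11.7 and 3.75 and a ratio of -1.52 (-3.06 to 0.02). SiOR206 had 27.3, 19.7 and 9.38 and a ratio of -1.03 (-2.09 to 0.03). The intervals of the latter pair of receptors reached 0 against P_BB, while all 5 receptors had intervals without 0 between P_Bb and M_BB.

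With P_Bb apart, which would follow genotype, 1 receptor was higher (0.735%, against 0.417% of all genes) and 2 were lower (1.47%, against 0.655%). At means from 10 to under 30 the shares were 0.840% of receptors against 0.95% of genes for higher and 1.68% against 1.90% for lower, close to each other. SiOR402 had normalized counts of 19.0, 8.96 and 6.56 in P_Bb, P_BB and M_BB, and its ratio of P_Bb over P_BB was 1.04 (-0.07 to 2.16). Both SB/SB values were under 10, so SiOR402 passed the minimum mean only through P_Bb. Its higher level there is thus partly built into the choice. SiOR137 had 4.76, 13.4 and 15.9 and a ratio of -1.41 (-2.92 to 0.11). SiOR391 had 6.61, 16.1 and 20.6 and a ratio of -1.22 (-2.55 to 0.10). SiOR137 and SiOR391 were under 10 in P_Bb and passed the minimum mean through the SB/SB libraries. Their lower level in P_Bb is therefore also partly built in. All 3 intervals against P_BB included 0, whereas those against M_BB did not.

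With P_BB apart, which follows neither genotype nor social form, 1 receptor was higher (0.735%, against 0.0953% of all genes) and 1 was lower (0.735%, against 0.50%). At means from 10 to under 30, 0.246% of genes were higher and 1.44% lower, against 0.840% of receptors in each direction. SiOR50 had normalized counts of 12.5, 26.0 and 11.3 in P_Bb, P_BB and M_BB, and both ratios against P_BB had intervals without 0. With total counts these ratios were -0.98 and -0.94, with intervals that reached 0.02, and with TPM the ratio of P_Bb over P_BB was -0.97, so SiOR50 left the pattern under both. SiOR12 had 16.7, 8.07 and 16.9, with intervals that included 0, and it was under 2-fold when depth was scaled by the median of ratios or by the trimmed mean of M values (TMM). Since SiOR12 was under 10 in P_BB alone, its lower level there is partly built into the choice. The pattern with no counterpart in the design thus held 2 receptors, that of genotype 3 and that of M_BB, in which social form and colonies differ together, 5. Over all genes, P_BB, P_Bb and M_BB were apart for 0.596%, 1.07% and 1.37%, which is the same order. The difference between the receptor numbers was not tested.

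**Figure D4:**
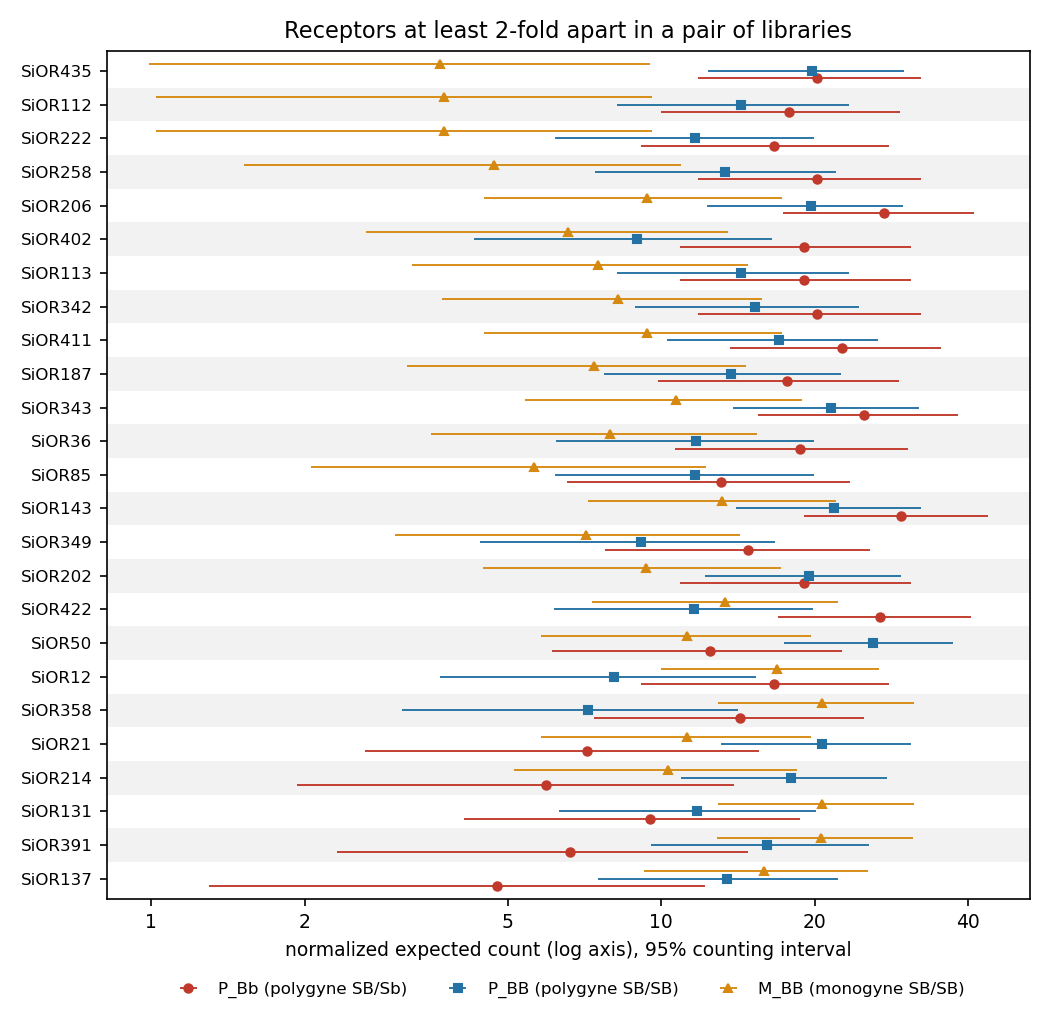
Normalized expected count (log axis) with its 95% counting interval in each library for the 25 receptors at least 2-fold apart in any pair of libraries, ordered by the ratio of P_Bb over M_BB. The 15 receptors at the top are higher in P_Bb than in M_BB with P_BB between them, the 3 at the bottom are lower, and the intervals are wide, since values near 4 rest on about 4 counts.

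M_BB was the lowest library for 71 of the 136 receptors (52.2%, against 40.8% of all genes) and the highest for 31 (22.8%, against 34.3%). P_Bb was the highest for 57 (41.9%, against 35.2%) and the lowest for 35 (25.7%, against 29.5%). P_BB was the highest for 48 (35.3%, against 30.5%) and the lowest for 30 (22.1%, against 29.6%). In 46 receptors at least 1 library was under 10 normalized counts, which was so for 25 in M_BB, 16 in P_Bb and 10 in P_BB, some in several libraries. Such receptors passed the minimum through their other libraries, so a difference between libraries is built into the choice for some of them. The lowest expected count of any receptor in a library was 3.94.

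The study's text names odorant perception genes, and those given here are not on the list. Others that it names, such as Gp-9, are not covered. SiOR163 had 1, 0 and 0 expected counts in P_Bb, P_BB and M_BB. XLOC_016888, which the study calls SiOR463, had 12, 24.0 and 12.9 expected counts in P_Bb, P_BB and M_BB, or 14.3, 21.5 and 12.1 normalized. P_BB was highest, but both log2 ratios against it were within counting error. They were -0.58 for P_Bb (-1.56 to 0.41) and -0.81 for M_BB (-1.77 to 0.15). The paper's replicated libraries had this gene lower in SB/Sb than in SB/SB workers. Here P_Bb was not below M_BB, with a log2 ratio of 0.23 (-0.88 to 1.34). A separate ID, SiOR463, had 6, 8 and 11 counts and a mean normalized count of 8.21, under the minimum. Whether both IDs stand for 1 receptor is not given in the sources used here. SINVm1_gene_13698, the study's SiOR462, had 0, 2 and 0 counts in P_Bb, P_BB and M_BB, at or under a floor of 3 counts in each. A separate ID, SiOR462, had 1, 2.31 and 0 counts, and the sources used here do not say if both IDs are 1 receptor. SINVm1_gene_02111, an odorant-binding protein ID that the study also calls SiOBP12, had 19, 1 and 1 counts. The paper assigns the higher antennal expression of SB/Sb workers at this ID to SiOBP12b′, a duplicated copy, and to neither allele of SiOBP12. Odorant-binding proteins carry hydrophobic odorants through the fluid around the receptor neurons. The counts of this ID were well above the floor in P_Bb alone.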

How the data were processed

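Antennal polyA RNA of 3 worker classes was sequenced as 1 pooled library each. The authors mapped reads with Bowtie onto transcripts of the official gene set joined with antennal transcript models and receptor coding sequences, and ran RSEM (labels name Bowtie2, Cuffdiff and RSEM; versions for these libraries are not given in the sources used here). The deposited tables hold expected counts, posterior mean counts with SDs, and TPM with intervals. Both strands were weighted equally by the authors, so antisense reads are counted too. Deposited EBSeq tables hold the authors' posterior probabilities of expression patterns and were not used, nor were the transcript models.

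Expected counts were divided by the 75th percentile over genes with a count, scaled to geometric mean 1 (size factors 0.841 for P_Bb, 1.12 for P_BB and 1.07 for M_BB). Ratios were log2(normalized count + 0.5), which understates changes of low genes, with 95% Poisson intervals. The receptors and lists were chosen with earlier results of these data known, and the range from 10 to under 30 after seeing these values. No p-value was computed. Named receptors were the 20 highest by count and 15 by TPM, the 5 most extreme per pair and direction, those with 1 library apart, those at the thresholds, the 5 steadiest, and the longest and shortest. Alternatives were median-of-ratios factors (DESeq2 1.42.0), TMM (edgeR 4.0.16, rounded counts), total counts, TPM, posterior mean counts, and other pseudocounts, folds, minimums and SD limits. The intervals were checked only on simulated Poisson counts. Those hold no spread beyond counting error, so the check does not cover such spread in the real libraries. Python 3.11.15, pandas 2.3.3 and R 4.3.3 were used.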

Additional observations from a re-analysis of the deposited data

How the results depend on the processing

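Over 294 alternative values of 42 log2 ratios of 17 receptors, none of those at 2-fold or more changed sign. The ratio of SiOR50 for P_Bb over M_BB, 0.14, became -0.04 with total counts. Of 130 alternative values of 11 summaries, 82 stayed close and 48 moved. The counts below are given for receptors at least 2-fold apart, in the order P_Bb to P_BB (8), M_BB to P_BB (9) and P_Bb to M_BB (18), then for P_Bb, P_BB and M_BB apart from both others (3, 2 and 5). The matching shares of all genes were 2.87%, 3.96% and 5.30%, then 1.07%, 0.596% and 1.37%. With a pseudocount of 5 the counts were 2, 3 and 8, then 0, 0 and 2. The shares of all genes were then 0.989%, 1.64% and 2.55%, then 0.417%, 0.0953% and 0.715%. With a 1.5-fold threshold the counts were 29, 41 and 44, then 10, 10 and 18, and the shares of all genes 12.6%, 17.3% and 19.6%, then 4.83%, 3.28% and 7.46%. With a 4-fold threshold the counts were 0, 1 and 3, then 0, 0 and 1. The shares of all genes there were 0.143%, 0.203% and 0.346%, then 0.107%, 0% and 0.0834%. A minimum mean of 20 left 45 receptors, with 0, 0 and 1, then 0, 0 and 0. Of all genes at that minimum, 0.982%, 2.08% and 2.90% were apart, then 0.287%, 0.151% and 0.906%. A minimum mean of 30 left 17 receptors, with 0, 0 and 0, then 0, 0 and 0, so each receptor at least 2-fold apart had a mean under 30. There the median log2 ratio of P_Bb over M_BB was 0.34. An SD limit of 0.1 left 68 receptors, with 4, 4 and 6, then 1, 1 and 3. The SD limit does not change the shares of all genes. With no SD limit, P_Bb was apart for 5 receptors, and with no pseudocount M_BB was apart for 8 (1.66% of all genes). P_BB was apart for 1 receptor with the median of ratios and for 1 with TMM. The median log2 ratio of M_BB over P_BB was 0.062 with total counts and -0.03 with TPM, and that of P_Bb over M_BB was -0.028 with total counts. The 10 highest receptors held 24.6% of the summed level by normalized count and 21.6% by TPM. The cause of these shifts was not tested, except that stricter minimums, limits and thresholds leave fewer receptors by construction. No paired analysis was possible because each class has 1 library. At about 16 counts per receptor and library, a difference under 2-fold is within counting error for most of the list.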
